A study of Mus musculus with 2 samples.

Results

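The genes described here are 6 forkhead genes of the adult mouse thymus, Foxp1, Foxp3 and Foxp4 of the Foxp subfamily and Foxo1, Foxo3 and Foxo4 of the Foxo subfamily. They were chosen by name, through the gene symbols that match the gene IDs of the deposited tables, and not by a measured value. They are 6 of 43346 genes in the gene table and 6 of the 44 forkhead genes found there, and they carry 53 of the transcripts. RNA was sequenced from thymus of C57BL/6J mice, an inbred laboratory strain, at 8 weeks of age. The labels give 1 group of 2 libraries, biological replicates 1 and 2, with no treatment and no genetic change named. Each sample pooled males and females that were littermates, and both carry the same donor entry, so the spread between them may be technical in part. The libraries were stranded and built from polyadenylated RNA after removal of ribosomal RNA, with paired reads of 76 bases. Summed over every row of the gene table, depth was 49.3 M fragments for replicate 1 and 63.1 M for replicate 2.

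Forkhead factors share a compact DNA-binding domain in which a recognition helix lies in the major groove of the DNA. Foxp proteins act largely as repressors and bind DNA as dimers through a leucine zipper. Foxp3 directs the development of regulatory T cells, part of which takes place in the thymus, and Foxp1 and Foxp4 are expressed more widely in thymocytes. Foxo proteins are activators that growth factor and antigen receptor signals control through the kinase Akt, which phosphorylates them and sends them out of the nucleus to 14-3-3 proteins. In T cells Foxo1 and Foxo3 are known for the genes of quiescence, survival and homing, and for promoting Foxp3 itself.

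The sequences below, from 5 of the 6 genes, show what these factors have in common and where they can be told apart. The stretch was chosen where, with the translated coding sequences aligned, the most amino acids were the same in all 5 genes (13 of 20). The sequences are 60 coding bases (20 codons) from each gene and span the recognition helix. They come from the GENCODE M21 transcripts on GRCm38 and run 5' to 3' on each gene's own strand. Capitals mark the 32 bases that are the same in all 5 genes.
Foxp3: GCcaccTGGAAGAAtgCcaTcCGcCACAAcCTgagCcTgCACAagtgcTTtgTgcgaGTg
Foxp4: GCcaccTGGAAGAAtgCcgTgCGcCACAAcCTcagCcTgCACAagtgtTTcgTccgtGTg
Foxo1: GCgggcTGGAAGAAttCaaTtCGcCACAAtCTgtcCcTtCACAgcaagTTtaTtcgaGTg
Foxo3: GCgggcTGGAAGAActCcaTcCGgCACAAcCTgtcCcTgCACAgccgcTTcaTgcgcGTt
Foxo4: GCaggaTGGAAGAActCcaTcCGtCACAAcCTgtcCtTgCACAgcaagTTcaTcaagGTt

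The span of each window on the genome was chrX:7592740-7592947 for Foxp3, chr17:47871304-47874646 for Foxp4, chr3:52269411-52345086 for Foxo1, chr10:42197854-42274827 for Foxo3 and chrX:101255262-101258224 for Foxo4. In all 5 genes the window crossed an exon boundary, and in all 5 the boundary fell after base 12, within the shared letters TGGAAGAA. The intron at that place set the genomic span of the window, from 208 bases in Foxp3 to 76974 bases in Foxo3. Within the window 88.3% of bases were the same between Foxp3 and Foxp4, 75 to 81.7% between pairs of Foxo genes, and 61.7 to 75% between a Foxp and a Foxo gene. Over whole transcripts, the longest run of identical bases between any 2 of these 5 genes was 38 bases, between Foxo1 and Foxo3. That is shorter than a read of 76 bases. Transcripts with the whole window in their coding sequence held all of the level of Foxp3 and of Foxo1 in both libraries. They held 98.4% and 97.4% of the level of Foxo3 in replicates 1 and 2, and 93.2% and 92.7% of that of Foxo4. For Foxp4 they held 69.9% and 69.4%.

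Foxp4 and Foxp1 had the highest TPM of the 6 genes and Foxp3 the lowest. Levels are given in TPM, a transcript abundance that is scaled for length and depth and can be compared between genes. Foxp4 (chromosome 17, 47867133 to 47924645, minus strand), a partner that can pair with Foxp1, was at 176 TPM in replicate 1 and 152 TPM in replicate 2 (164 ± 17.0, SD, n = 2). Foxp1 (chromosome 6, 98925338 to 99522721, minus strand), which holds mature T cells in quiescence, was at 144 and 102 TPM (123 ± 29.6, SD, n = 2). Foxp3 (X chromosome, 7573644 to 7595245, plus strand) was at 4.45 and 3.92 TPM (4.18 ± 0.375, SD, n = 2). Each of the 3 was lower in replicate 2, and none of their ranges overlapped with another's. The mean level of Foxp4 was 39.2 times that of Foxp3, and the mean level of Foxp1 was 29.4 times that of Foxp3. In fragments scaled for depth but not for length (CPM), these ratios were 25.9 and 14.1. Foxp2, the paralog known from brain and lung, was at 0.36 and 0.66 TPM on 31 and 52 estimated fragments. The deposited 95% interval for Foxp2 ran from 0.846 to 3.28 TPM in replicate 1 and from 0.916 to 2.76 TPM in replicate 2. Neither interval included the deposited level, so both levels of Foxp2, and its share below, are uncertain. Of the summed TPM of the 4 Foxp genes, Foxp4 held 56.4% ± 3.21, Foxp1 41.9% ± 3.42, Foxp3 1.44% ± 0.103 and Foxp2 0.183% ± 0.102 (SD, n = 2).

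Among the Foxo genes, Foxo3 and Foxo4 were close in level and Foxo1 was lower. Foxo3 (chromosome 10, 42181841 to 42276755, minus strand), a regulator of apoptosis genes in lymphocytes, was at 69.2 and 59.9 TPM (64.6 ± 6.55, SD, n = 2). Foxo4 (X chromosome, 101254528 to 101260873, plus strand) was at 55.1 and 54.7 TPM (54.9 ± 0.332, SD, n = 2). Foxo1 (chromosome 3, 52268336 to 52353221, plus strand), which drives Il7r and homing receptor genes in T cells, was at 25.7 and 16.5 TPM (21.1 ± 6.50, SD, n = 2). The ranges of these 3 genes did not overlap. Foxo4 differed least between the libraries and Foxo1 most. Foxo6, the fourth paralog, was at 0.39 and 0.65 TPM on 33 and 76 fragments. Of the summed TPM of the 4 Foxo genes, Foxo3 held 45.8% ± 0.362, Foxo4 39.1% ± 3.42, Foxo1 14.8% ± 3.22 and Foxo6 0.376% ± 0.166 (SD, n = 2).

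**Figure D1:**
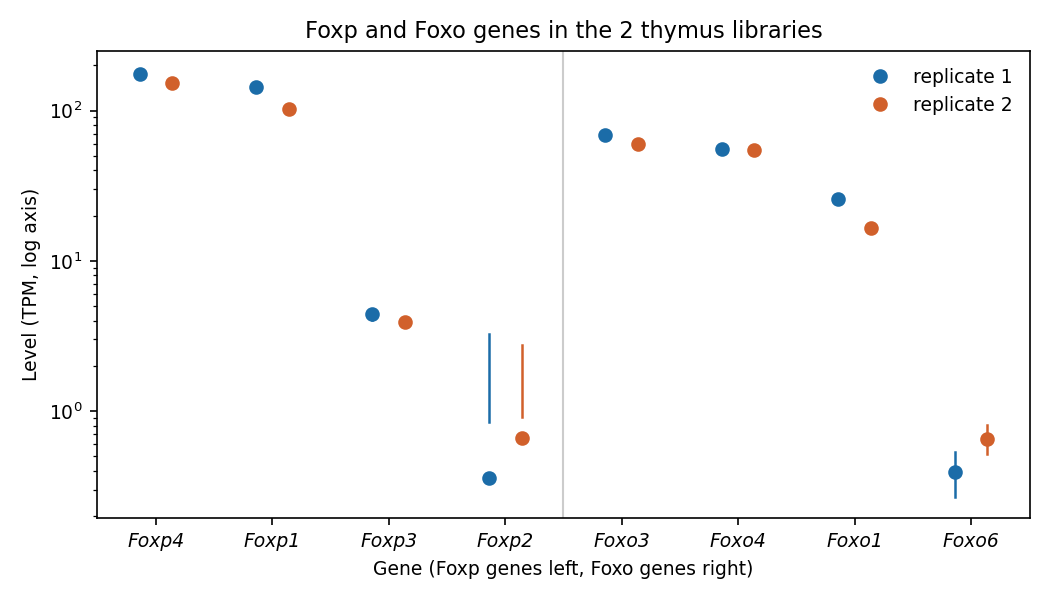
Level of each Foxp and Foxo gene in TPM on a log axis, with 1 point per library and the deposited 95% interval as a line, where the line is longer than the point. The 6 genes lie between 3.92 and 176 TPM, and Foxp2 and Foxo6 lie below 1 TPM; for Foxp2 the interval lies above the point.

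From highest to lowest mean TPM the order was Foxp4, Foxp1, Foxo3, Foxo4, Foxo1, Foxp3, and neighbours did not overlap in any step. The steps between neighbouring means were 1.33-fold, 1.91-fold, 1.18-fold, 2.60-fold and 5.04-fold. The smallest step, Foxo3 over Foxo4, was 1.26-fold in replicate 1 and 1.10-fold in replicate 2. With 2 values per gene no test between genes was made. The order rests on the length scaling, because Foxo1 is annotated with 1 transcript of 8665 bases and took more fragments than Foxo4. In CPM, fragments scaled for depth but not for length, Foxo1 was at 133 and Foxo4 at 66.0. Foxo3 was at 198 CPM and Foxp1 at 155 CPM, the reverse of their order in TPM. Deposited fragment counts were 14363 and 17040 for Foxp4, 9755 and 12062 for Foxo3, 8332 and 8651 for Foxp1, 7605 and 6769 for Foxo1, 3230 and 4065 for Foxo4, and 541 and 673 for Foxp3. All 6 genes had a mean of at least 1 TPM, as did 60.3% of protein-coding genes, and 5 of the 6 had at least 10 TPM, as did 36.2% of protein-coding genes. Ranked among 21474 protein-coding genes by mean TPM, Foxp4 stood 879th, Foxp1 1243rd, Foxo3 2444th, Foxo4 2844th, Foxo1 5526th and Foxp3 10161st. In whole tissue, fewer cells of a type and less RNA per cell cannot be told apart, so the level of Foxp3 does not give a number of regulatory T cells.

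Other forkhead genes lay on both sides of most of the 6, and Foxp4 and Foxp1 had the highest mean TPM of the family. Of the 36 forkhead genes outside the Foxp and Foxo subfamilies, 17 reached 1 TPM in mean level and 7 reached 10 TPM, and the median was 0.825 TPM. Foxm1, a factor of cell division, was at 127 and 92.9 TPM, which put it between Foxp1 and Foxo3 in mean TPM. In CPM, Foxm1 was at 250, above Foxp1 at 155. Foxn3 was at 78.7 and 56.5 TPM, and its range overlapped with that of Foxo3. Foxk2 was at 51.0 and 45.5 TPM and Foxk1 at 27.9 and 21.9 TPM, both between Foxo4 and Foxo1 in mean level. Foxj3 was at 26.1 and 21.5 TPM and Foxj2 at 18.8 and 15.8 TPM. Foxn1, the factor that thymic epithelial cells depend on, was at 22.7 and 24.6 TPM, within the range of Foxo1. Above Foxp3 stood Foxn2, Foxs1 and Foxj1, with means of 9.27, 6.64 and 5.64 TPM. Foxq1, Foxc1, Foxd3, Foxd2, Foxa1 and Foxb1 had means from 2.93 down to 1.11 TPM. Of the 27 tested, 1 was called between the libraries (adjusted p under 0.05 and a log2 change of 1 or more), beside 4.54% of all genes. It was Foxe1, which was lower in replicate 2, at 0.48 and 0.22 TPM. Foxr2 had 0 fragments in both libraries.

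**Figure D2:**
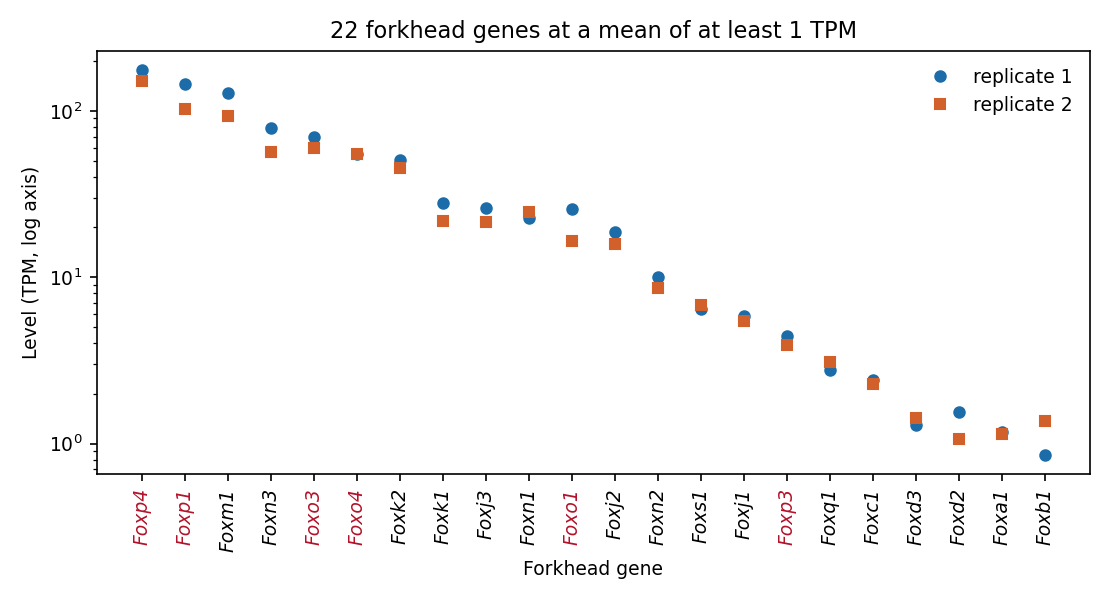
Level in TPM on a log axis of 22 of the forkhead genes whose mean reached 1 TPM, ordered by mean, with 1 point per library. The 6 Foxp and Foxo genes are named in red; Foxp4 at 176 and 152 TPM is the highest and Foxp3 at 4.45 and 3.92 TPM lies just below Foxj1.

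The design gives no contrast of conditions, so the only comparison is between the libraries. None of the 6 genes passed the call rule, which asks for an adjusted p under 0.05 in a two-sided exact binomial test of the counts and for a change of 1 or more on the log2 scale. By the same rule 780 of 17198 genes tested were called, which is 4.54%. All 6 ratios of replicate 2 over replicate 1 were below 0 when library sizes were scaled by edgeR's TMM. Foxo1 had the largest, a log2 ratio of -0.60 (95% interval -0.65 to -0.55, exact binomial adjusted p = 7.4e-135), and 4.82% of the genes tested had a ratio as low or lower. Foxp1 followed at -0.38 (-0.42 to -0.33, exact binomial adjusted p = 2.1e-63), with 11.5% of genes as low or lower. The ratio was -0.19 for Foxp4 (-0.22 to -0.15, exact binomial adjusted p = 1.7e-28) and -0.13 for Foxo3 (-0.16 to -0.09, exact binomial adjusted p = 1.0e-09). Foxo4 had a ratio of -0.10 (-0.17 to -0.03, exact binomial adjusted p = 0.0081), and Foxp3 of -0.12 (-0.28 to 0.05, exact binomial adjusted p = 0.25). With no minimum on the ratio, 5 of the 6 genes were below 0.05, all lower in replicate 2, as were 26.9% of all genes tested in that direction and 52.0% in either. Without a minimum, a gene with more fragments reaches an adjusted p under 0.05 at a smaller ratio, here and in the lists below. The median was 144 CPM for the 6 genes and 5.19 CPM over all protein-coding genes, tested or not. The intervals cover counting error only. In edgeR's negative binomial test with a common dispersion (biological coefficient of variation 0.215, estimated from the same 2 libraries) each of the 6 genes had an adjusted p of 1, with unadjusted p-values of 0.18 for Foxo1 to 0.82 for Foxo4. That test called 1.27% of genes.

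**Figure D3:**
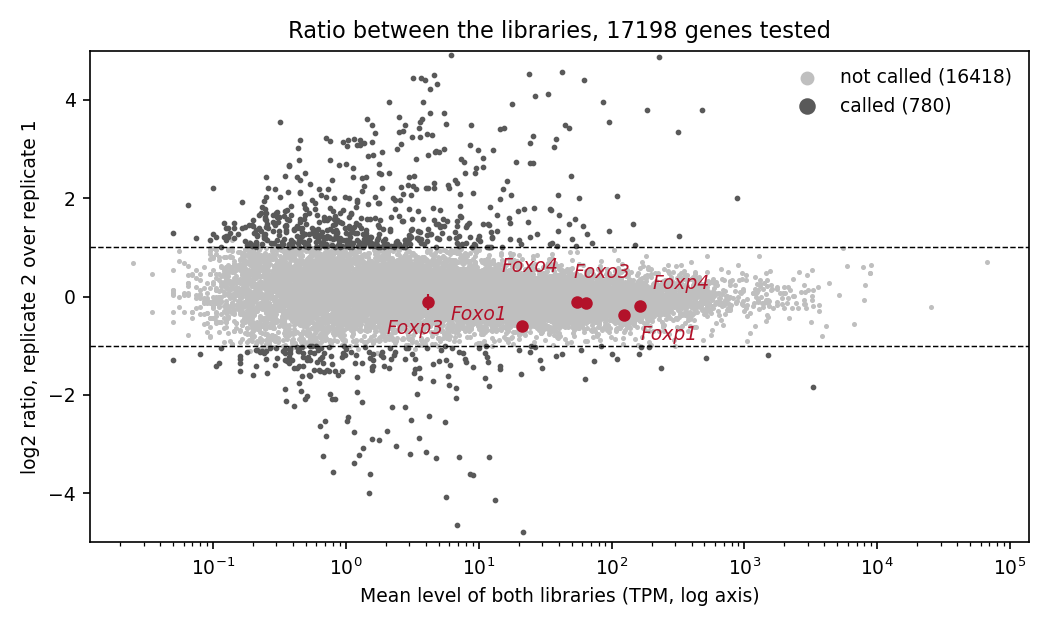
Log2 ratio of replicate 2 over replicate 1 against mean TPM (log axis) for the 17198 genes tested, with the 780 called genes in dark grey, dashed lines at a ratio of 1 and -1, and the 6 Foxp and Foxo genes in red with 95% counting intervals. All 6 lie between 0 and -1, Foxo1 lowest at -0.60; 5 genes lie beyond the axis.

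Marker genes of other thymic cells also differed between the libraries, and their part in these ratios was not tested. The 10 markers of double positive thymocytes, the most numerous thymic cells, were all detected and summed to 3040 TPM in replicate 1 and 2929 TPM in replicate 2. Of these 10, 4 were higher and 5 lower in replicate 2 with no minimum ratio, beside 25.1% and 26.9% of all genes tested. The 8 macrophage markers summed to 1046 and 1418 TPM, and the 8 thymic epithelial markers to 1170 and 1534 TPM. The 8 dendritic cell markers summed to 2185 and 3032 TPM, nearly all of it H2-Ab1 at 2137 and 2977 TPM, a class II gene that B cells and epithelium also express. Each of the other 7 was at 17.1 TPM or lower in both libraries. With no minimum ratio, 7 of 8 macrophage markers, 5 of 8 dendritic cell markers and 6 of 8 epithelial markers were higher in replicate 2, beside 25.1% of all genes tested. The 8 markers of fat summed to 1688 and 1345 TPM, and of these Ucp1 of brown fat fell from 346 to 124 TPM and Lep rose from 1.09 to 2.41 TPM. The 8 B cell markers summed to 915 and 1101 TPM, most of it Ighm at 815 and 1019 TPM, and with no minimum ratio 4 were lower and 1 higher in replicate 2. The 6 granulocyte markers summed to 80.2 and 57.9 TPM, and 3 were lower and 0 higher. Endothelial markers summed to 79.2 and 85.5 TPM, with 6 of 7 higher, and fibroblast markers to 105 and 133 TPM, with 3 of 7 higher and 2 lower. The 6 erythroid markers summed to 4495 and 5463 TPM, and 4 of the 5 tested were higher. None of the markers was at 0 in both libraries. By the call rule, Ucp1 and Lep were the only markers called.

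The division of each gene among its transcripts was compared next. Of the 53 transcripts, 10 had 0 fragments in both libraries and 35 passed the filter on low counts. Of these 35, 5 were called, or 14.3%, beside 10.1% of the 39381 transcripts tested. In replicate 2, 1 was higher and 4 were lower, beside 5.45% and 4.60% of all transcripts. The negative binomial test called none of the 35 (1.11% of all transcripts). The filter asked for fragments in both libraries and so left out transcripts at 0 in replicate 2. Without it, 10 of 43 transcripts were called, 9 of them lower in replicate 2, beside 15.2% of 63846 transcripts. A fragment that fits several transcripts is divided by the quantifier's model, so these counts are estimates and the test does not carry that error.

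**Figure D4:**
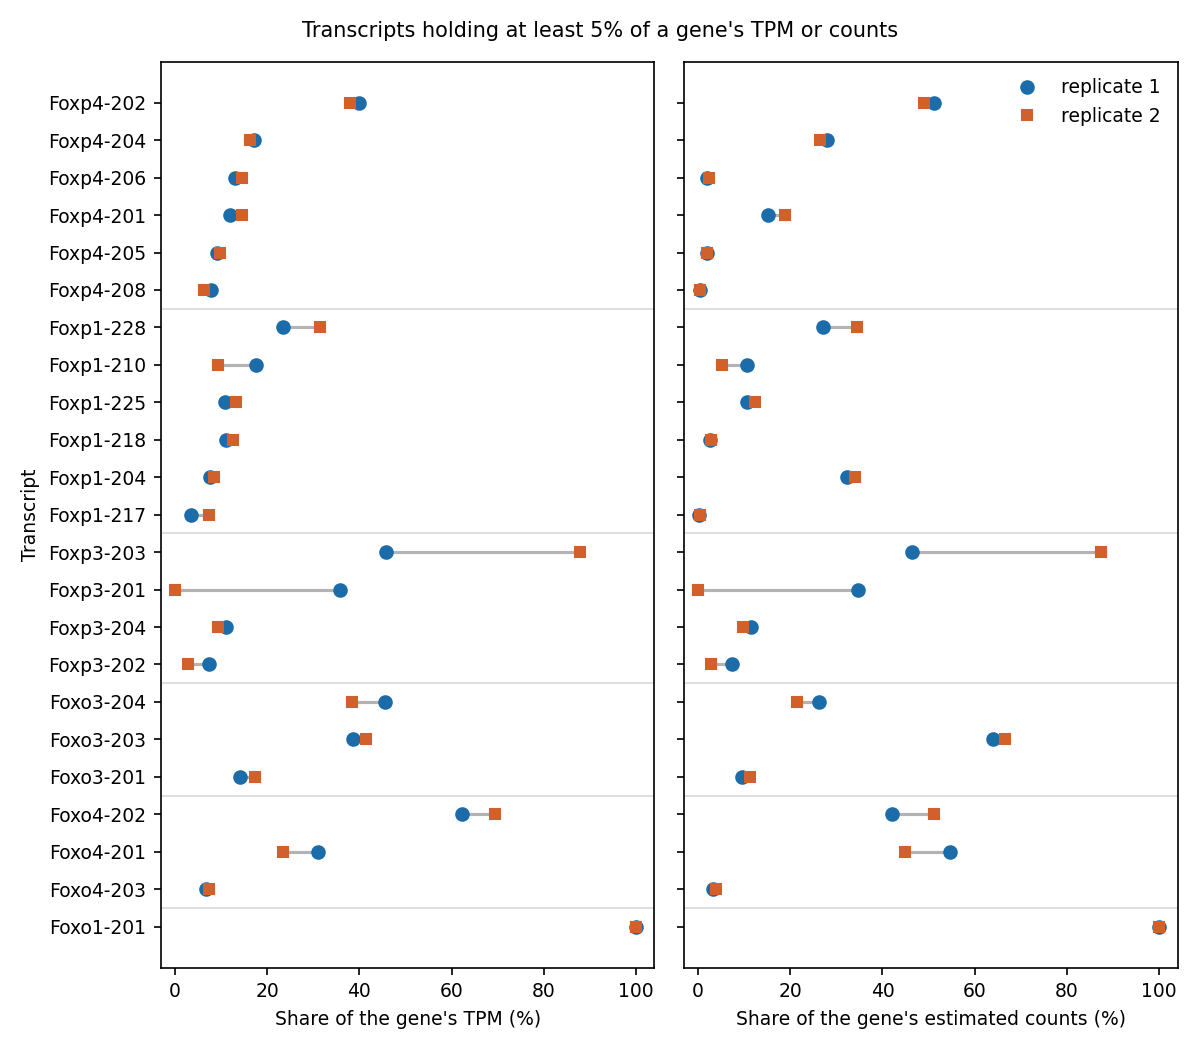
Share of each gene's TPM (left) and of its estimated counts (right) in percent for the 23 transcripts with a mean of at least 5% on either scale, with a line joining the 2 libraries. Foxp3-203 and Foxp3-201 lie far apart between the libraries, while the Foxp4 transcripts differ by a few percent.

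Foxp3 showed the widest shift. Its 4 annotated transcripts share a coding length of 1287 bases and differ in their 5' exons. Foxp3-203 held 45.7% of the gene's TPM in replicate 1 and 87.8% in replicate 2, on 251 and 589 estimated fragments. Foxp3-201, which starts at an internal exon, held 35.8% in replicate 1 and was at 0 in replicate 2, on 187 and 0 fragments. The 0 is an estimate, since fragments shared with the other models are divided among them. The deposited 95% intervals for Foxp3-201, 0.85 to 2.12 TPM in replicate 1 and up to 0.543 TPM in replicate 2, did not overlap. By the deposited posterior mean, a second estimate in the same tables, its share was 33.4% and 5.34%. Foxp3-202 held 7.43% and 2.81% and was called lower (log2 ratio -1.48, exact binomial adjusted p = 0.00037; 0.89 in the negative binomial test). Foxp3-204 held 11.0% and 9.44%. The lengths of Foxp3-203 and Foxp3-204 in the deposited tables, 3739 and 3832 bases, differ from the 3763 and 3834 bases of the gene models used here.

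By annotated 5' end, transcripts from 7579669 to 7579676 held 56.8% and 97.2% of the TPM of Foxp3. The transcript from 7580483 held 7.43% and 2.81%, and the one from 7586273 held 35.8% and 0%. RefSeq lists a start at both of the first 2 places (build GRCm38.p6), and the 250 bases before each are given to set them beside these shares. Capitals mark the motifs that were searched.
Foxp3 upstream of 7579676: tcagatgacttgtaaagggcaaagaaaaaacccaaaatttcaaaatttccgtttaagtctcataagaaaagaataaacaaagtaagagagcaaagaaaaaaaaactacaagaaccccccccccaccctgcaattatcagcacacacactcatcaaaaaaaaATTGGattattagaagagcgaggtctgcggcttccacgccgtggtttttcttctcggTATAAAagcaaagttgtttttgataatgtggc
Foxp3 upstream of 7580483: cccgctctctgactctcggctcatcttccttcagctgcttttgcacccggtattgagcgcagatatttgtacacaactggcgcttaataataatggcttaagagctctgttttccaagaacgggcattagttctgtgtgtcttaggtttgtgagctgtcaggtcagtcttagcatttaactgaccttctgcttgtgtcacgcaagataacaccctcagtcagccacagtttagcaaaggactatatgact

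These run at chrX:7579426-7579675 and chrX:7580233-7580482. The searched motifs, on both strands of the 300 bases from 250 before to 50 after each start, were the forkhead motif GTAAACA, the Runx motif TGTGGT, the TATA box as TATAAA, the box of letters CCAAT, the cyclic AMP response element as TGACGTCA and the GC box as GGGCGG. None of these motifs contains another. The first start of Foxp3 held TATAAA, beginning 32 bases before it, and ATTGG, the reverse complement of CCAAT, beginning 89 bases before it. The second start held no match to any of the 6. Over 32851 RefSeq promoters, 13.6% held TATAAA and 37.4% held CCAAT. The forkhead motif was in 0 of 8 promoters of the 5 genes listed, beside 3.65% of all promoters, and the Runx motif in 0 of 8, beside 16.8%. GGGCGG was in 5 of 8, beside 35.7%. The Foxp3 starts held 6 and 8 CG dinucleotides in 300 bases, near the median of 7 over all promoters. Foxp4 held 33, Foxo1 31 and Foxo3 35, more than 89.4 to 93.1% of promoters.

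Several genes overlap the span of Foxp3, introns included, and their effect on its count was not tested. The 3' end of the gene overlaps Ccdc22, transcribed from the opposite strand, over 1437 bases, and whether the counting used strand is not given in the sources used here. Ccdc22 was at 28.6 and 28.2 TPM, above Foxp3. Flicr, a noncoding RNA on the strand of Foxp3 that overlaps its 5' part, was at 0.42 and 0.47 TPM. On the opposite strand, Gm36995 spans the whole gene, 21602 bases, and was at 1.52 and 1.38 TPM on 293 and 369 fragments. Ppp1r3f, also opposite, shares 640 bases of the gene span and was at 4.59 and 4.56 TPM. Its highest base, 7574283, lies before 7579669, the first annotated 5' end of the 4 Foxp3 transcripts quantified. Ppp1r3f thus overlaps none of these transcripts. The gene count of Foxp3 was a whole number in both libraries, as a count is when no fragment is divided with another gene.

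Foxp1 was spread over many transcripts. Of its 32 transcripts, 9 were at 0 in both libraries and 4 held at least 10% of the TPM on average. Foxp1-228 led at 23.5% and 31.4%, followed by Foxp1-210 at 17.7% and 9.23%, Foxp1-225 at 10.8% and 13.2% and Foxp1-218 at 11.2% and 12.7%. In counts the picture differed, because Foxp1-204, at 7177 bases the longest of these, held 32.3% and 34.0% of the fragments but 7.65% and 8.51% of the TPM. Foxp1-210, a model with 1045 coding bases, was at 25.4 and 9.44 TPM and was called lower (log2 ratio -1.39, exact binomial adjusted p = 1.8e-65). Foxp1-216 and Foxp1-220 were also called lower and Foxp1-211 was called higher, each at under 8 TPM. Foxp1-207 had 645 fragments in replicate 1 and 0 in replicate 2. Foxp1-207 and Foxp1-228 start at the same base, 99163018, and have the same length of 2121 bases. The transcripts from that start together held 30.8% and 31.5% of the TPM (SD 0.511, n = 2).

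The models Foxp1-207 and Foxp1-228 part at 2 places in the coding sequence, each the 3 bases CAG, taken or skipped at an exon's edge. Whether these bases form 1 codon or fall across 2 was not checked. Both are shown in capitals with 21 bases on each side, since they are what tells these models apart there.
Foxp1 site A: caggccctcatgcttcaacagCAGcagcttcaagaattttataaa
Foxp1 site B: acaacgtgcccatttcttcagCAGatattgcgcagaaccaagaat

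Site A, at chr6:99015511-99015513, was in transcripts with 80.3% and 87.0% of the TPM assigned at that place in replicates 1 and 2. Site B, at chr6:98945424-98945426, was in 52.7% and 42.4%. In estimated counts, site A was in 54.1% and 58.2% and site B in 66.3% and 60.0%, the reverse of their order in TPM. Foxp1-228 holds site A and lacks site B, and Foxp1-207 holds site B and lacks site A. A longer stretch of 96 bases was in 98.7% and 97.4% of the TPM. Transcripts of 10 models near the full coding length held 39.2% and 41.5% of the TPM of Foxp1 but 70.9% and 74.2% of its counts. Some Foxp1 fragments were divided with other genes, since the gene counts were not whole, and Gm20696 overlaps it on the same strand at 1.76 and 1.48 TPM. By 5' end, the models from 99027991 to 99028313 held 28.9% and 23.5% of the TPM. The RefSeq start inside that stretch, at 99028298, lies in the most CG-rich of the 8 promoters, with 44 CG dinucleotides in 300 bases, more than 97.8% of promoters. The 250 bases before it, at chr6:99028299-99028548 on the minus strand, are shown to set beside the Foxp3 starts, with 3 GGGCGG matches and 1 ATTGG match in capitals.
Foxp1 upstream of 99028298: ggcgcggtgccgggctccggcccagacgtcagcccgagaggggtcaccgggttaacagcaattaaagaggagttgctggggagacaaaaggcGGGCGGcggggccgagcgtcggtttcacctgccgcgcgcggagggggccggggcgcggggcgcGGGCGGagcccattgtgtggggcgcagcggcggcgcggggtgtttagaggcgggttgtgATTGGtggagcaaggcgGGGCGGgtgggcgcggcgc

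Foxp4 divided its level in the same way in both libraries. Foxp4-202 held 40.0% and 37.9% of the TPM, Foxp4-204 17.2% and 16.2%, and Foxp4-201 11.9% and 14.5%. Models without a coding sequence held 30.1% and 30.6% of the TPM but 4.47% and 4.74% of the counts, since they are short. None of the 7 Foxp4 transcripts tested was called. The coding models differ at 2 main places, a stretch of 36 bases at chr17:47875689-47875724 and 1 of 3 bases at chr17:47878495-47878497. They are given in capitals with 21 bases on each side.
Foxp4 36-base stretch: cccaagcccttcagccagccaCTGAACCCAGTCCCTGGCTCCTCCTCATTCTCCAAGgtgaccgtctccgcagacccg
Foxp4 3-base stretch: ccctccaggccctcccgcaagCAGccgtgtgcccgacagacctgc

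The 36 bases, which keep the reading frame at 12 codons, were in transcripts with 18.2% and 22.0% of the TPM at that place (20.1% ± 2.68, SD, n = 2). The 3 bases were in 69.6% and 69.7% (69.7% ± 0.0577, SD, n = 2). That share also takes in Foxp4-205 and Foxp4-208, which have no coding sequence, while the share of the 36 bases rests on coding models only. As at the 2 Foxp1 sites, the 3 bases are CAG, and their place in the reading frame was not checked.

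Foxo3 was carried by 3 transcripts with the same 2016 coding bases that differ in length. Foxo3-204, at 2535 bases, was at 31.5 and 23.1 TPM, and Foxo3-203, at 6848 bases, was at 26.8 and 24.9 TPM. Their order in TPM changed between the libraries: Foxo3-204 held 45.5% against 38.7% for Foxo3-203 in replicate 1, and 38.5% against 41.5% in replicate 2. In counts Foxo3-203 led in both, with 63.9% and 66.5%. Foxo3-201 held 14.2% and 17.3% of the TPM. Foxo1 has 1 annotated transcript here, with 1956 coding bases in a length of 8665, so its level needed no division among its own models. Its count in replicate 2, 6769.22, was not whole, so some fragments were divided with features outside the gene.

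Foxo4 had 2 coding transcripts that part within the first exon. Foxo4-202 was at 34.3 and 37.9 TPM and held 62.2% and 69.4% of the level. Foxo4-201 was at 17.1 and 12.8 TPM and held 31.0% and 23.3%. In counts, Foxo4-201 led in replicate 1 with 54.6%, and Foxo4-202 led in replicate 2 with 51.2%. Neither was called. Foxo4-202 is annotated with 1345 bases, all of them coding, so its model holds no untranslated sequence. Foxo4-201 is annotated with 3162 bases, and TPM divides by that length. Foxo4-202 lacks 165 bases, or 55 codons, that Foxo4-201 holds at chrX:101254992-101255156. The bases are shown in capitals with 15 bases on each side, since they are a coding stretch in which these models differ.
Foxo4 stretch in Foxo4-201: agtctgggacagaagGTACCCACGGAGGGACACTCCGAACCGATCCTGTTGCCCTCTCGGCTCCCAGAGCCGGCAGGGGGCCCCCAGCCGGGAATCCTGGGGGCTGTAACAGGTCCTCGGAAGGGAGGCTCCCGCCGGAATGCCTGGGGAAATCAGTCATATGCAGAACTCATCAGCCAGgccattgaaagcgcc

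This stretch begins with GT and ends with AG, the letters found at the ends of most introns. Models that hold it had 37.8% and 30.6% of the TPM of Foxo4, and 58.0% and 48.8% of its counts. The difference between the 2 scales follows from the annotated lengths.

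The genes that control Foxo proteins were nearly all present. Of 19 kinases, phosphatases and related genes upstream of Foxo factors, 18 reached 1 TPM and 13 reached 10 TPM. Their median was 27.7 TPM, beside 3.29 TPM over all protein-coding genes. The 4 highest were Inpp5d, Akt1, Akt2 and Pik3cd. Inpp5d, a phosphatase that removes the lipid signal of PI3 kinase, was at 256 and 221 TPM. Akt1 was at 192 and 174 TPM and Akt2 at 111 and 110 TPM, and Pik3cd, the leukocyte catalytic subunit of PI3 kinase, was at 100.4 and 83.9 TPM. The lowest was Stk3 at 0.74 and 0.49 TPM, a kinase whose paralog Stk4 acts upstream of Foxo1 in T cells. None of the 19 was called. Without the minimum ratio 8 were lower and 3 higher in replicate 2, beside 26.9% and 25.1% of all genes tested.

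All 15 genes for partners, export and modification of Foxo proteins reached 1 TPM, and their median was 53.2 TPM. The 14-3-3 genes Ywhah, Ywhae and Ywhaz led at 178 and 133 TPM, 149 and 134 TPM, and 144 and 95.8 TPM. Sirt2, a deacetylase, was at 84.5 and 81.5 TPM, and the lowest was the nuclear exporter gene Xpo1 at 9.48 and 7.63 TPM. None was called. Without the minimum ratio, 12 of the 15 were lower in replicate 2 and 0 higher, beside 26.9% and 25.1% of all genes tested.

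Of 25 genes known as Foxo targets in lymphocytes, 24 reached 1 TPM, and the median was 41.1 TPM. Txnip, an inhibitor of thioredoxin, was at 484 and 557 TPM. Rag1, of the recombinase that builds antigen receptors, was at 276 TPM in both libraries. Ccr7, a homing receptor, was at 169 and 190 TPM and Pik3ip1, an inhibitor of PI3 kinase, at 128 and 120 TPM. The lowest was Eomes at 1.18 and 0.62 TPM. Btg1, an antiproliferative gene, was the 1 target called, and it fell from 33.3 to 16.2 TPM, just past the minimum ratio. Without that minimum, 12 of the 25 were lower and 6 higher in replicate 2, where all genes gave 26.9% and 25.1%. Named for their place in T cell biology after their values were seen, Il7r was at 6.75 and 6.42 TPM and Klf2 at 72.8 and 49 TPM.

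The 32 genes for induction and partners of Foxp3 had a median of 50.2 TPM, and 31 reached 1 TPM. Satb1, a chromatin organiser that acts early at regulatory T cell genes, was at 873 and 688 TPM. The deacetylase gene Hdac7 was at 829 and 669 TPM, the factor Ets1 at 333 and 214 TPM, and Il2rg, the shared cytokine receptor chain, at 305 and 339 TPM. The lowest was Hdac9 at 0.81 and 0.68 TPM. None was called. Without the minimum ratio, 26 of the 32 were lower in replicate 2 (26.9% of all genes) and 1 was higher (25.1% of all genes). The 16 genes for Foxp partners, mostly repressor subunits, had a median of 58.5 TPM, and 13 reached 1 TPM. Ctbp1, a corepressor, was at 256 and 218 TPM, and the NuRD genes Hdac1, Mta1 and Chd4 were at 168 and 160 TPM, 174 and 129 TPM, and 178 and 101 TPM. None was called (4.54% of all genes), and without the minimum ratio 12 were lower and 1 higher (26.9% and 25.1% of all genes).

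Genes of regulatory T cells were lower, nearer to Foxp3. Of these 25 genes, Foxp3 included, 21 reached 1 TPM and 12 reached 10 TPM, and the median was 8.50 TPM. The highest were Tnfrsf18, or GITR, at 68.8 and 67.2 TPM, Tnfrsf4, or OX40, at 57.7 and 64.1 TPM, Izumo1r at 55.6 and 55.8 TPM and Capg at 40.6 and 39.4 TPM. The lowest was the cytokine gene Il10 at 0.13 and 0.08 TPM. None of the 24 tested was called, beside 4.54% of all genes. Without the minimum ratio 5 were higher and 3 lower in replicate 2, shares below the 25.1% and 26.9% over all genes. Many genes of this list are also expressed by other activated T cells, so it does not isolate regulatory T cells. Named after their values were seen, Il2ra was at 16.4 and 15.6 TPM, Ikzf2, which encodes Helios, at 14.8 and 10.5 TPM, and Ctla4 at 3.15 and 5.82 TPM.

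**Figure D5:**
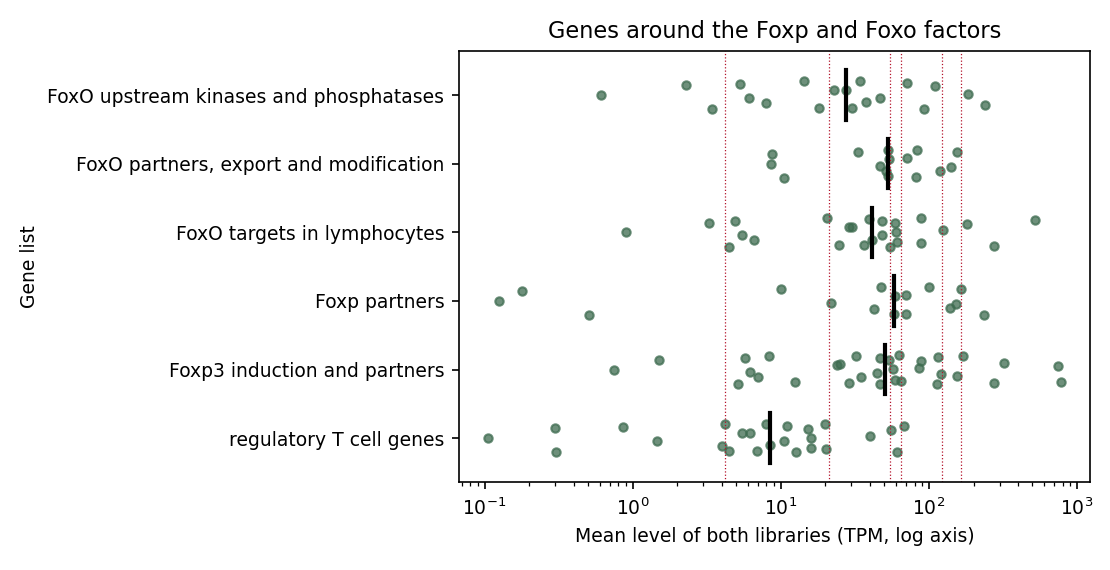
Mean TPM of both libraries (log axis) for each gene of 6 lists, with 1 point per gene and a black bar at each list's median. Dotted red lines mark the 6 Foxp and Foxo genes. The regulatory T cell genes have the lowest median, 8.50 TPM, and the Foxp partners the highest, 58.5 TPM.

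Among the 255 genes of all lists, the gene nearest in level to each of the 6 was taken as the 1 with the smallest distance over both libraries on the log2(TPM + 0.1) scale. The nearest to Foxp4 was Hdac1 at 168 and 160 TPM, to Foxp1 Ptcra at 136 and 99.4 TPM, and to Foxo3 Creb1 at 65.9 and 58.8 TPM. The nearest to Foxo4 was Izumo1r at 55.6 and 55.8 TPM, to Foxo1 Camp at 25.2 and 15.7 TPM, and to Foxp3 Zbtb46 at 4.38 and 3.74 TPM. With 2 libraries this measures level and not a shared pattern.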

How the data were processed

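The 6 genes and the gene lists were chosen with earlier results of these data known. The authors deposited a gene and a transcript table for each of the 2 libraries, which hold expected counts (estimated fragments, not normalised), TPM, posterior means, interval bounds and lengths, per the file headers. Features were quantified on mm10 with GENCODE M4, per the text deposited with the tables, and the deposited TPM sums over all features, spike-ins included. The quantifier, the aligner and how strand was used: not given in the sources used here. Contig and junction lists on mm9 were not used here. Depth was 48.6 and 62.1 M fragments over genes, and a floor of 3 counts stands for 0.0618 and 0.0483 CPM.

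Symbols and models came from GENCODE M21 (GRCm38): 42462 of 43346 genes and all 53 transcripts of the 6 genes matched. Of 228 list symbols, 1 matched through a synonym and 1 (Prmt1) did not match. One transcript that the tables give to Foxp1 is named Gm20696-202 in M21. Features outside genes held 1.49% and 1.48% of fragments. Shares in percent were computed from the deposited values. Expected counts were rounded and compared by two-sided exact binomial tests against TMM library sizes, over features kept by filterByExpr, with Benjamini-Hochberg adjustment over all features tested and a prior count of 0.5 in ratios. This covers counting error between 2 libraries, which is all the 1 group allows. The libraries were counted as 2 samples because the labels name them biological replicates. They differed by more than counting error, as technical libraries also can. The test was checked on simulated gene counts with a coefficient of variation below the 0.215 estimated here, and not on transcript counts. Named genes were all 6 members, their paralogs, other forkhead genes at 1 TPM or more, transcripts holding at least 10% or called, and in each list of pathway genes the 4 highest, the lowest and those called, with exceptions named in the text. Some items that the rule would name, and some sequences, are not reported here. Marker lists are given by their sums and called genes. Alternatives were other scalings, no filter, a negative binomial test, no minimum ratio, other level scales and leaving out a library. With no protein table at hand, coding sequences replaced the planned protein comparison. They were aligned by codon with mafft. Promoters came from RefSeq (GRCm38.p6), where 5 of the 6 genes matched. Tools were R 4.3.3, edgeR 4.0.16, DESeq2 1.42.0, matplotlib 3.10.9, Python 3.11.15, scipy 1.17.1, pandas 2.3.3 and numpy 2.4.6.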

Additional observations from a re-analysis of the deposited data

How the results depend on the processing

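None of the 6 genes was called under any scaling (TMM, DESeq2 size factors, library size alone, upper quartile), without the filter on low counts or in the negative binomial test, and 5 had an adjusted p under 0.05 once the minimum ratio was dropped. The ratio of Foxo4 had an exact binomial adjusted p of 0.0081 with TMM, 0.59 with library size alone and 0.10 with upper quartile scaling. Over all genes, 780 were called in the main test, 1441 with no filter, 218 in the negative binomial test and 8942 with no minimum ratio. Of the transcripts of the 6 genes, 5 were called in the main test, 0 in the negative binomial test and, chosen after seeing the data, 10 without the filter. Over all transcripts these counts were 3958, 437 and 9688. The median level of the 6 genes, 59.7 TPM, became 144 in CPM and 68.0 TPM when spike-ins, mitochondrial genes and Rn7sk were left out of the sum. It was 57.3 to 62.2 TPM with either library left out. The median share of the leading transcript, 53.9%, was 45.6 to 55.5% with either library left out. For the library comparison, leaving out a replicate leaves 1 library, so that alternative was not run. No paired analysis was possible because the labels give only 1 group, with no second group to pair the replicate numbers with.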
